A study of Mus musculus with 24 samples.

Results

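The autophagy and mitophagy genes of the mouse retina are described here across the hours that follow hypoxic preconditioning. They were chosen by name. A probe set belonged to them when the array annotation gave it 1 gene symbol that begins with Atg and a digit, or 1 of 20 listed symbols of the pathway. By this rule 85 of the 45037 probe sets were members, and they measured 36 of the 18193 genes on the array, 18 of them listed and 18 Atg genes. A further 3 probe sets carry the listed Bnip3l together with its pseudogene Bnip3l-ps, so they were kept out of every count and are described apart. Optn had no probe set under the annotation used here.

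RNA was taken from whole retinas of BALB/c mice, an albino strain that carries the leucine variant of Rpe65 and is sensitive to light damage. Hypoxic mice had breathed 6% oxygen for 6 h and were then returned to room air in darkness for 0, 2, 4 or 16 h, and normoxic controls were collected at the same 4 time points. The 8 groups had 3 arrays each. RNA of 3 retinas, taken from 3 different mice, was combined on every array, so the comparisons rest on 3 pools against 3. The age of the mice is not given in the sources used here. Signals are log2 values, on which a difference of 1 is a doubling. Testing at a time point required a hypoxic or normoxic mean of at least 6.69, the density minimum between background and expressed signal, and a probe set was called when its adjusted p from limma was below 0.05.

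Macroautophagy encloses part of the cytoplasm in a double membrane, the autophagosome, and delivers it to the lysosome. The Ulk kinase complex starts the process, a class III PI3 kinase complex marks the membrane with a phosphoinositide, and Wipi, Atg2 and Atg9 proteins bring lipid to it. A pair of ubiquitin-like conjugation reactions then couple proteins of the Atg8 family, the LC3s and GABARAPs, to the growing membrane, where cargo receptors bind them. In mitophagy the cargo is a mitochondrion, tagged either by Pink1 or by receptors in its outer membrane such as Bnip3, Bnip3l and Fundc1. Bnip3 is a textbook target of the hypoxia-inducible factor HIF-1, which binds DNA at a short core motif. Photoreceptors and the retinal pigment epithelium (RPE) are known for a high lysosomal and autophagic load.

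The tissue labels were checked against marker genes. The 5 measured rod photoreceptor genes lay far above the signal threshold in every pool, with a mean log2 signal between 13.73 and 13.92, and none was called at any time point. Their mean signal was 13.84 to 13.87 in the hypoxic and 13.90 to 13.92 in the normoxic pools of 0 h. At 2 h it was 13.73 to 13.78 and 13.82 to 13.91. The treatments overlapped in it at 4 and 16 h. RPE markers were uneven between the groups. Over all 10 RPE markers, tested or not, the changes at 0 h ran from 0.16 to 3.75 on the log2 scale with a median of 2.36, and the mean signal of the list was between 8.36 and 8.55 in the hypoxic pools and between 6.00 and 6.40 in the normoxic pools, where 9 of 10 markers lay below the threshold. Of the 7 markers tested at 0 h, 6 passed the threshold through the hypoxic group alone. The filter thus favoured markers that were high after hypoxia, and the 7 calls, all higher, are not used as evidence. How far the filter set these calls was not tested. At 2 h the mean signal of the list was between 7.11 and 8.11 after hypoxia and 6.38 and 7.60 in normoxia, and 0 markers were called at 2, 4 and 16 h. The 11 lens markers had a median change of 1.56 at 0 h and -0.97 at 16 h, with 0 called, and their mean signal ranged from 7.78 to 11.97 among the normoxic pools of 0 h. The pool of normoxia 0 h replicate 2, which had the lowest lens signal, and that of normoxia 16 h replicate 3 were the farthest from the other arrays within their groups. The 3 measured erythroid markers were below the threshold in all groups.

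The promoters of 4 genes are shown because these genes had the largest called changes at 0 h among the members with a single promoter entry: Bnip3, Lamp2 and Ulk1 were higher and Ulk2 was lower. Each is the 250 bases before the RefSeq start site on build GRCm38.p6, 5′ to 3′ on the strand of the gene. Capitals mark the hypoxia response core ACGTG, its longer form TACGTG, the variant core GCGTG and the E-box CACGTG, searched on both strands, so that CACGC is a GCGTG of the opposite strand. CACGTG holds ACGTG on each strand, and TACGTG holds it on its own. The windows lie at chr7:138909507-138909756 for Bnip3, chrX:38456461-38456710 for Lamp2, chr5:110810082-110810331 for Ulk1 and chr11:61855093-61855342 for Ulk2, all on the minus strand.
Bnip3: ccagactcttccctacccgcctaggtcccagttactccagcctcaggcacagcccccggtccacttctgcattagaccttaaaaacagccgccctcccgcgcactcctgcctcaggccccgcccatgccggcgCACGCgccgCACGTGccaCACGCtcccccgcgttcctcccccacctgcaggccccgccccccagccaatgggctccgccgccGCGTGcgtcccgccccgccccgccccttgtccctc
Lamp2: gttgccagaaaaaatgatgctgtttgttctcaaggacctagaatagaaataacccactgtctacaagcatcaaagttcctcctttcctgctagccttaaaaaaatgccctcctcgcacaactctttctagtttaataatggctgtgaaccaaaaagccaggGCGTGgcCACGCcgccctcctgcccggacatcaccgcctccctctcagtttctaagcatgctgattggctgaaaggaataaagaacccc
Ulk1: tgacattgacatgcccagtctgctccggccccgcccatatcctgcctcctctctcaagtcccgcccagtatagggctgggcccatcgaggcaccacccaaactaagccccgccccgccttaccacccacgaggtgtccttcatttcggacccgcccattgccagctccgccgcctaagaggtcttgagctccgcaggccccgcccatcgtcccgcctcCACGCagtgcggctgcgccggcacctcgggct
Ulk2: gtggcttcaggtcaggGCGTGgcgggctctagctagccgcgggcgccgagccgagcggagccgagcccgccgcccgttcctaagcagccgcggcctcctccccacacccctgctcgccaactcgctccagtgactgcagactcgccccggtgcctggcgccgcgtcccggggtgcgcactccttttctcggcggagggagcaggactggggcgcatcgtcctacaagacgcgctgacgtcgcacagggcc
The Bnip3 window held the E-box, which begins 108 bases before the start site and contains the core ACGTG, and 3 copies of GCGTG. The windows of Lamp2, Ulk1 and Ulk2 held GCGTG only. Of the 32851 promoters in the RefSeq table, 16.6% held ACGTG, 2.72% TACGTG, 28.2% GCGTG and 6.02% CACGTG in this window. Counted per gene, with a match in any of its entries, the shares were 18.5%, 3.12%, 30.9% and 6.86% of 27025 genes, and 12, 4, 17 and 5 of the 32 member genes with an entry held these motifs (37.5%, 12.5%, 53.1% and 15.6%). A match to these letters is a description of the sequence and not a binding site.

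Immediately after hypoxia the pathway did not move as a block. At 0 h 21 of the 63 tested member probe sets were called, or 33.3%, against 32.4% of all 18799 probe sets tested. Of these, 14 were higher after hypoxia (12 genes), where 15.2% of all probe sets were higher, and 7 were lower (5 genes), where 17.2% of all probe sets were lower. The median change of the tested members was -0.02 on the log2 scale, and that of all tested probe sets -0.01. Of the 21 called probe sets, 2 had passed the signal threshold through 1 treatment only, a probe set each of Becn1 and Atg4c. Bnip3 was the single member whose called change exceeded 2-fold. In RNA of a whole tissue, fewer cells of a type and less RNA per cell cannot be told apart.

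At 2 h 9 of 65 tested member probe sets were called, 13.8% against 16.6% of all. Each of the 9 was higher after hypoxia. At an unadjusted limma p below 0.05 there were 20 higher and 4 lower members, beside 5614 of all 18587 probe sets in either direction. The same counts were 16 and 12 members at 0 h, beside 7917 of 18799, and 13 and 2 at 4 h, beside 2878 of 18499. All probe sets were not split by direction at this p, so nothing particular to the members is read from these splits. Over all probe sets 9.19% were called higher and 7.38% lower at 2 h. The median change of the members was 0.09, and that of all tested probe sets was 0.01. The 9 calls depended on the fit. The methods' t-test, a plain t-test run here on the deposited values with adjustment, called 0 of the 65 members at 2 h. The 6 arrays of 2 h alone gave 3, and the fit with the RPE markers as a covariate 5. Shares of all probe sets were not counted in these fits, so nothing particular to the members is read from the drop. At 4 h 1 of 65 members was called, a probe set of Atg16l1 that was higher, where 1.43% of all probe sets were called, 0.876% higher and 0.551% lower. At 16 h limma called 0 of 65 members and 0% of all probe sets. At an unadjusted p below 0.05 it found 2 members and 1173 of all 18427 probe sets. The methods' t-test made 0 member calls after adjustment and 1 at a raw p under 0.001. Leaving out the pools that stood apart gave 22 members called at 0 h and 10 at 2 h.

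**Figure D1:**
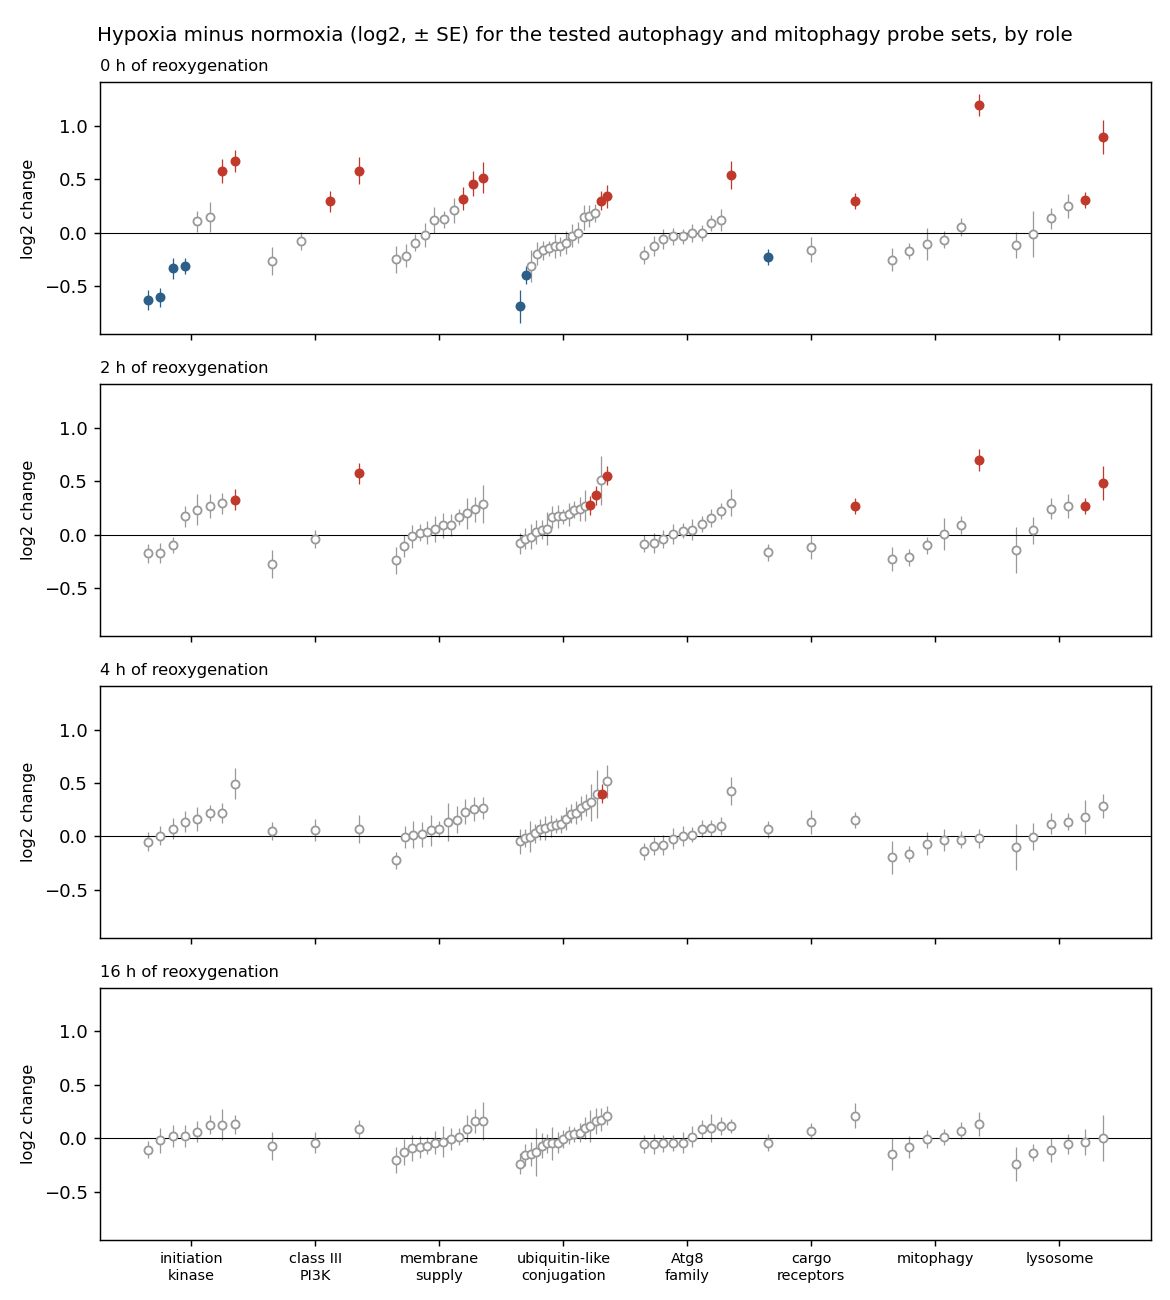
Change of each tested autophagy or mitophagy probe set (hypoxia minus normoxia, log2, with SE) at the 4 reoxygenation times, grouped by role and ordered by size within a role; filled points were called, red higher and blue lower. At 0 h filled points lie on both sides of 0, at 2 h the 9 filled points are all above it, and at 16 h there are none.

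Calls at 0 h came with the RPE markers, which were higher in the same pools. Their mean signal was 8.36 to 8.55 in the hypoxic pools of 0 h and 6.00 to 6.40 in the normoxic pools. RPE signal and hypoxia therefore cannot be told apart within these pools. With the mean RPE signal as a covariate in the fit, 2 of the 21 members called at 0 h remained called, a probe set of Bnip3 and a probe set of Ulk2. All 21 kept their direction. The change with the covariate over that without it had a median of 0.926 and ran from 0.307 to 1.86. The standard errors grew by a median factor of 2.05. The share of all probe sets called in this fit was not counted. The part of RPE tissue in each of the 21 changes was not tested beyond this fit. With the lens signal as the covariate 20 members were called at 0 h.

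**Figure D2:**
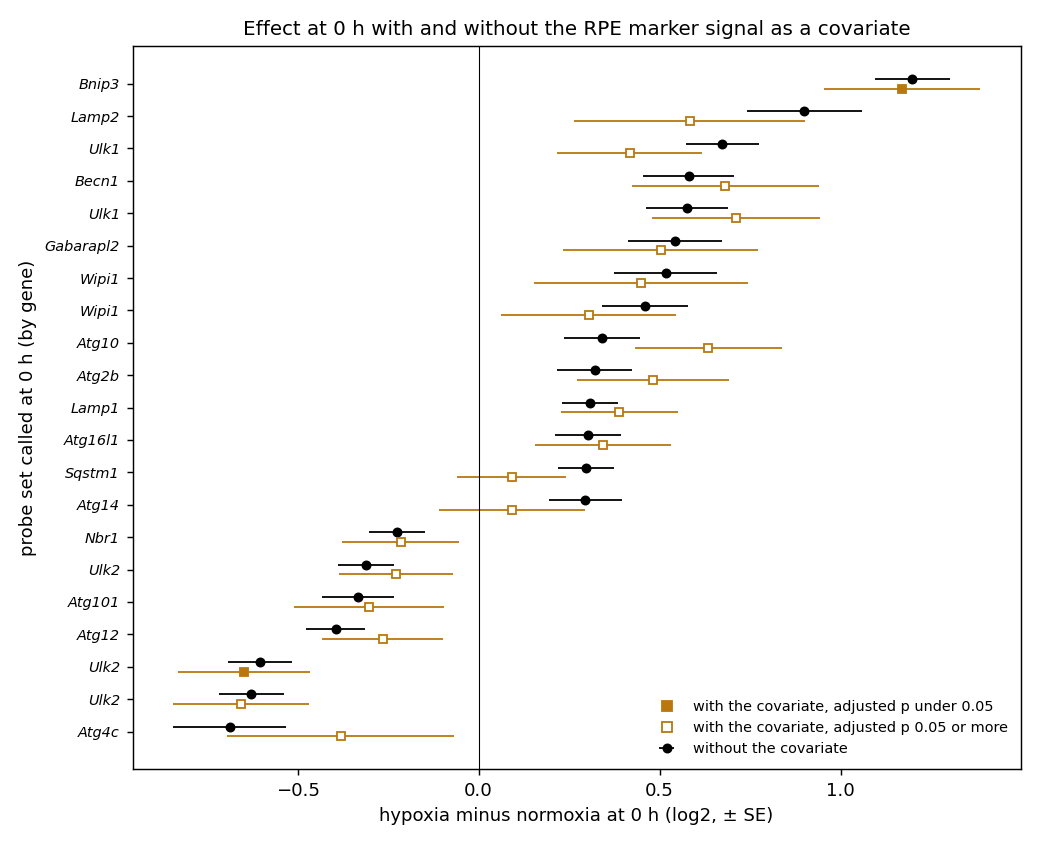
Change at 0 h (log2, with SE) of the 21 called member probe sets, without (black) and with (brown) the mean RPE marker signal as a covariate. Bnip3 and 1 of 3 Ulk2 probe sets stay called (filled squares), and no change switches sign. The changes of Sqstm1, Atg14 and Atg4c shrink the most in relation to their size, while others, such as those of Atg10 and Atg2b, are larger with the covariate.

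The mitophagy receptors carried the largest change. Bnip3 encodes a receptor of the outer mitochondrial membrane that binds the LC3s and GABARAPs. The Bnip3 signal was 12.60, 12.75 and 12.73 in the hypoxic pools at 0 h and 11.69, 11.57 and 11.23 in the normoxic pools. At 2 h it was 12.36, 12.22 and 12.16 after hypoxia and 11.38, 11.57 and 11.70 in normoxia. Hypoxic and normoxic pools did not overlap at either time. The difference was 1.20 ± 0.10 (log2, SE, 3 against 3 pools) at 0 h, a 2.29-fold higher signal (limma, adjusted p = 2.84e-08), and 0.70 ± 0.10 at 2 h, 1.62-fold (adjusted p = 0.000182). Every SE given here came from a fit of all 24 arrays, with the spread shared by the 8 groups, and not from the compared pools alone. Bnip3 also remained called at 0 h with the RPE covariate, at 1.17 ± 0.22 (adjusted p = 0.0038). At 4 h the hypoxic pools were at 11.79, 11.83 and 11.78 and the normoxic pools at 11.70, 11.83 and 11.97, and at 16 h at 11.56, 11.51 and 11.64 and 11.67, 11.67 and 11.62. The groups overlapped at 4 and 16 h, and neither change was called (-0.03 and -0.08). The effect at 0 h was larger than that at 2 h by 0.50 (adjusted p = 0.0367), than that at 4 h by 1.23 (adjusted p = 9.42e-06) and than that at 16 h by 1.28 (adjusted p = 4.52e-06), all by limma.

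The paralogue Bnip3l, which is known for the removal of mitochondria from maturing red cells, was measured by 3 probe sets that its pseudogene shares, and the signal of the 2 genes on these probes cannot be separated. The first of them, 1416922_a_at, was at 11.73, 11.88 and 11.89 in the hypoxic pools of 0 h and 11.19, 11.07 and 11.05 in the normoxic pools. At 2 h it was at 11.86, 11.71 and 11.75 and 11.26, 11.39 and 11.18. The treatments did not overlap at either time, and the same held for the other two probe sets. The 3 changes were 0.73, 0.71 and 0.67 at 0 h (adjusted p between 6.40e-07 and 1.93e-05, limma) and 0.50, 0.33 and 0.35 at 2 h (adjusted p between 0.000389 and 0.0176), and none was called at 4 or 16 h. With the RPE covariate the first and second of them stayed called at 0 h. The 2 h call of 1416923_a_at was lost without hypoxia replicate 1 or without normoxia replicate 1 or 2 (adjusted p up to 0.0794), and that of 1448525_a_at without hypoxia replicate 2 or 3 or without normoxia replicate 1 (adjusted p up to 0.0697). The 2 h call of 1416922_a_at was kept without any single pool.

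Fundc1 and Pink1, the other mitophagy genes among the members, gave no call at any time point. Fundc1, a further outer-membrane receptor, had changes of -0.17, 0.05 and -0.25 over its 3 probe sets at 0 h. Pink1, the kinase that accumulates on damaged mitochondria, had changes of -0.06 and -0.10 over 2 probe sets at 0 h.

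The initiation kinases moved in opposite directions at 0 h. Ulk1, the kinase that starts autophagosome formation, was at 8.24, 8.27 and 8.37 in the hypoxic pools and at 7.60, 7.82 and 7.44 in the normoxic pools by probe set 1416504_at. All hypoxic pools were above all normoxic pools. The change was 0.67 ± 0.10, or 1.6-fold (limma, adjusted p = 3.01e-05), and the second probe set of the gene gave 0.58 ± 0.11 (adjusted p = 0.000491). At 2 h the 2 changes were 0.29 and 0.27, and neither was called. The signal of 1416504_at lay between 7.64 and 7.97 in the 12 pools of 4 and 16 h.

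Ulk2, its close paralogue, went down. Probe set 1448858_at was at 7.51, 7.70 and 7.56 in the hypoxic pools of 0 h and at 8.29, 8.21 and 8.16 in the normoxic pools, with no overlap. The change was -0.63 ± 0.09 (limma, adjusted p = 1.89e-05), so that the normoxic signal was 1.54-fold the hypoxic signal. Of the other 3 probe sets of Ulk2, 2 were also called lower, at -0.60 and -0.31, and the other one was below the threshold. The call of 1417847_at held with the RPE covariate, at -0.65 ± 0.18 (adjusted p = 0.0494), and that of 1448858_at had an adjusted p of 0.0524 in that fit. By 2 h the change of 1448858_at was -0.17, not called, and it differed from that at 0 h by -0.45 (limma, adjusted p = 0.0294).

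The partners of the kinases were split. Atg101, a scaffold subunit of the complex, was lower at 0 h (-0.33 ± 0.10, adjusted p = 0.014) and higher at 2 h (0.33 ± 0.10, adjusted p = 0.0296), both by limma and without overlap of the pools. The difference of the 2 effects was -0.66 ± 0.14 (limma, adjusted p = 0.00519). Its 0 h call was lost without hypoxia replicate 1 or without normoxia replicate 3 (adjusted p up to 0.119). Its 2 h call was kept when hypoxia replicate 3 was left out, and lost when any other single pool of 2 h was (adjusted p up to 0.119). Atg13, the regulatory subunit that binds the kinases, had 3 probe sets and no call, with changes of 0.11 and 0.15 for the tested ones at 0 h.

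In the class III PI3 kinase complex, Atg14, the subunit that directs the complex to autophagosome formation, had its largest change at 2 h. Its hypoxic pools were then at 8.40, 8.28 and 8.27, and its normoxic pools at 7.72, 8.0 and 7.51. The hypoxic pools lay above the normoxic ones, and the change was 0.57 ± 0.10, or 1.49-fold (limma, adjusted p = 0.000727). At 0 h the pools were at 7.74, 7.89 and 8.0 after hypoxia and 7.45, 7.73 and 7.56 in normoxia, a change of 0.29 ± 0.10 (limma, adjusted p = 0.0289). This 0 h call was lost without hypoxia replicate 2 or 3 and without normoxia replicate 1 or 3 (adjusted p up to 0.138), and the 2 h call was kept without any single pool. The pools of 4 and 16 h lay between 7.48 and 7.84.

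Becn1, the scaffold of the complex, gave a divided picture over its 5 probe sets. Probe set 1430358_at was at 6.70, 6.79 and 7.0 in the hypoxic pools of 0 h and at 6.33, 6.17 and 6.24 in the normoxic pools. Those normoxic pools were below the signal threshold, and the hypoxic pools were just above it. The probe set was thus tested through the hypoxic group alone, where it is high. The change was 0.58 ± 0.13 (limma, adjusted p = 0.00117, and 0.00236 with no signal filter). The other tested Becn1 probe sets, 1455880_s_at and 1460320_at, had changes of -0.27 and -0.08 and were not called, and the last 2 were below the threshold at every time point.

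Among the proteins that supply and sense the membrane, Wipi1, a reader of the phosphoinositide made by that complex, was higher at 0 h. Probe set 1424917_a_at was at 7.26, 7.33 and 7.20 after hypoxia and 6.58, 6.98 and 6.69 in normoxia. The pools did not overlap, and the change was 0.52 ± 0.14, or 1.43-fold (limma, adjusted p = 0.00795). Of its other 5 probe sets, 1438709_at was also called (0.46, adjusted p = 0.00469), 2 were tested and not called (0.12 and 0.13), and 2 were below the threshold at 0 h. At 2, 4 and 16 h no Wipi1 probe set was called. With the RPE covariate the changes of the called probe sets were 0.45 and 0.30, with adjusted p of 0.469 and 0.566.

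Atg2b, one of the lipid transfer proteins, had probe sets that disagreed at 0 h. Probe set 1435501_at was called higher, at 0.32 ± 0.10 (limma, adjusted p = 0.0208), and 1424702_a_at was at -0.25 and not called. The call was lost without hypoxia replicate 1 or 2 and without normoxia replicate 1 or 3 (adjusted p up to 0.0847). No call was made for Atg2a, for the lipid scramblase Atg9a or for Wipi2, with 1, 1 and 3 probe sets. Atg9b was the single member gene with no tested probe set, since both of its probe sets stayed below the threshold in every group. Its probe set 1434092_at was at 5.53, 5.85 and 5.40 after hypoxia and 5.09, 4.48 and 5.14 in normoxia at 0 h.

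Of the conjugation genes 4 of 16 tested probe sets were called at 0 h, 2 of them higher, and 3 of 17 at 2 h, beside 32.4% and 16.6% of all probe sets. Atg4c, a protease that trims Atg8 proteins, was at 5.92, 6.58 and 6.23 in the hypoxic pools of 0 h and 7.04, 6.90 and 6.86 in the normoxic pools. The hypoxic pools were all lower and all below the threshold, so that the probe set was tested through the normoxic group alone. The change was -0.69 ± 0.16 (limma, adjusted p = 0.00176, and 0.0035 with no signal filter). At 4 h the order was the other way round, with 7.50, 7.33 and 7.45 after hypoxia and 6.86, 7.20 and 6.66 in normoxia. That change of 0.52 was not called (limma, adjusted p = 0.102), and the effects at 0 and 4 h differed by -1.20 ± 0.22 (limma, adjusted p = 0.000648). The second Atg4c probe set was not tested at 0 h and was not called later.

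Atg12, Atg5 and Atg16l1 form the complex that attaches Atg8 proteins to the membrane, and they followed different courses. Atg12 by probe set 1451747_a_at was at 8.99, 9.26 and 9.20 after hypoxia and 9.59, 9.50 and 9.55 in normoxia at 0 h. At 2 h it was at 9.64, 9.72 and 9.64 and 9.48, 9.29 and 9.52. The hypoxic pools were thus all below the normoxic ones at 0 h and all above them at 2 h. The change was -0.39 ± 0.08 at 0 h (limma, adjusted p = 0.000824) and 0.23 at 2 h, which was not called (adjusted p = 0.0544), and the 2 effects differed by -0.63 ± 0.12 (adjusted p = 0.00157). The second tested Atg12 probe set had changes of -0.31 and 0.27 at these times, neither called.

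Atg5 by probe set 1415684_at was at 9.00, 8.80 and 9.00 after hypoxia and 8.68, 8.54 and 8.47 in normoxia at 2 h, without overlap. The change was 0.37 ± 0.09 (limma, adjusted p = 0.00697), and at 0 h it was -0.12 and not called. The effects at 0 and 2 h differed by -0.49 ± 0.13 (limma, adjusted p = 0.016). Its other two probe sets had changes of 0.24 and 0.17 at 2 h, not called.

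Atg16l1 stood higher after hypoxia for longer than any other member by the calls. Its pools at 2 h were at 10.51, 10.34 and 10.40 after hypoxia and 9.99, 9.95 and 9.65 in normoxia. At 4 h they were at 9.91, 9.63 and 9.79 and 9.39, 9.38 and 9.36. At 0 h they were at 9.92, 9.95 and 10.10 and 9.66, 9.71 and 9.70. Hypoxic pools exceeded normoxic pools without overlap at each of these times and at 16 h. The changes were 0.30 ± 0.09 at 0 h, 0.55 ± 0.09 at 2 h and 0.40 ± 0.09 at 4 h (limma, adjusted p = 0.014, 0.000426 and 0.025), and 0.21 at 16 h, which was not called (adjusted p = 0.77). The 0 h call was lost without hypoxia replicate 3 (adjusted p = 0.0787) and the 4 h call without any single pool but hypoxia replicate 2 (adjusted p up to 0.188), while the 2 h call was kept throughout. No difference was called between its effect at 0 h and those at 2, 4 or 16 h (limma, adjusted p = 0.264, 0.672 and 0.672).

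Of the remaining conjugation genes, Atg10, which passes Atg12 to Atg5, was higher at 0 h by 0.34 ± 0.10 (limma, adjusted p = 0.0153), a call that was lost without hypoxia replicate 3 or normoxia replicate 3 (adjusted p up to 0.0938). The protease Atg4b was higher at 2 h by 0.27 ± 0.08 in 1 of 3 probe sets (limma, adjusted p = 0.0308), and this call did not survive the loss of any hypoxic pool of 2 h or of normoxia replicate 1 (adjusted p up to 0.149). Atg3, the enzyme that loads Atg8 proteins onto lipid, had changes of -0.14 at 0 h and 0.17 at 2 h in its tested probe set, neither called, although the 2 effects differed (limma, difference -0.32, adjusted p = 0.0472). Atg7, the activating enzyme of both reactions, had 3 of 4 probe sets tested at 0 h, with changes between 0.00 and 0.16 and no call. Atg4a, Atg4d and Atg16l2 had 2 probe sets each and were called at no time point. Atg16l2 by probe set 1429396_at was below the threshold at 0 h, with 5.73, 5.75 and 5.89 after hypoxia and 6.51, 6.59 and 6.41 in normoxia.

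**Figure D3:**
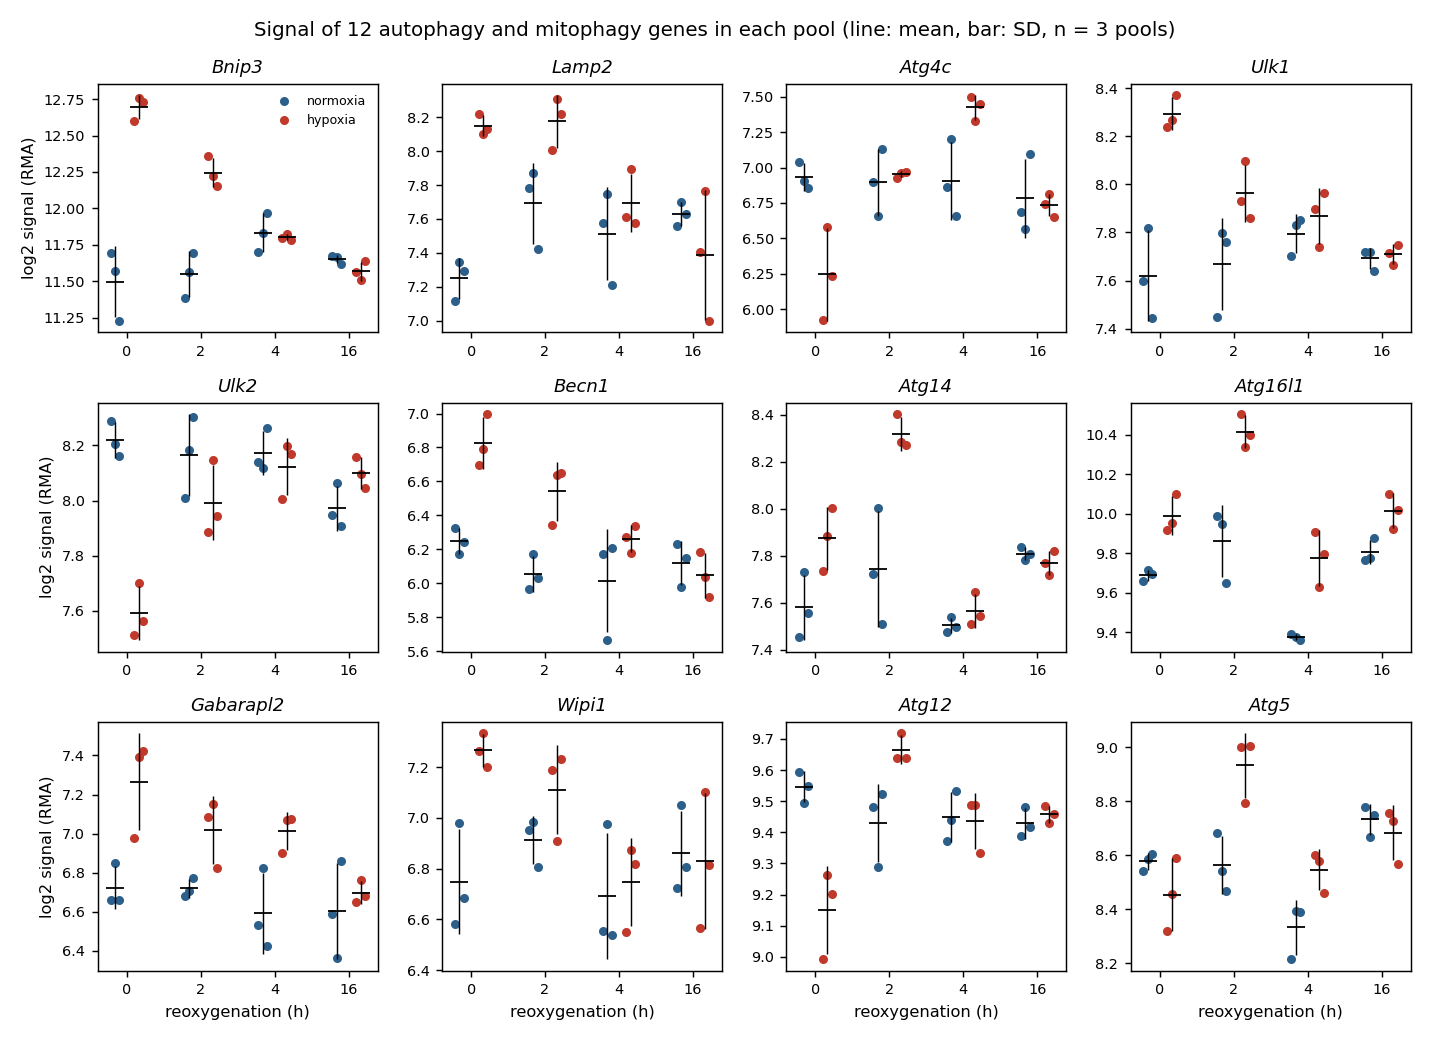
Log2 signal in every pool for the 12 member genes with the largest called changes, by reoxygenation time (points, hypoxia red and normoxia blue; horizontal line the mean, vertical bar the SD, 3 pools); each panel has its own axis and starts above 0. The Bnip3 pools at 0 and 2 h lie apart by treatment and meet at 4 h, and Atg12 lies below normoxia at 0 h and above it at 2 h.

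The Atg8 family itself, whose members coat the autophagosome, had 10 tested probe sets. Of these 1 was called at 0 h, where 32.4% of all probe sets were, and 0 at 2, 4 and 16 h, where 16.6%, 1.43% and 0% of all were. Map1lc3b, the LC3 most used as a marker of autophagosomes, had changes between -0.00 and 0.09 over its 3 tested probe sets at 0 h. Map1lc3a had -0.03 and 0.12, Gabarap -0.05, and Gabarapl1 -0.13 and -0.03. The call was a probe set of Gabarapl2, 1441376_at, at 6.98, 7.39 and 7.42 after hypoxia and 6.66, 6.85 and 6.66 in normoxia at 0 h. These pools straddled the threshold without overlapping, and the change was 0.54 ± 0.13 (limma, adjusted p = 0.00281). The second Gabarapl2 probe set, 1423187_at, had a change of -0.21 at 0 h, in the other direction and not called (adjusted p = 0.063).

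The cargo receptors also parted. Sqstm1, or p62, which links ubiquitin to LC3, was higher by 0.30 ± 0.08 at 0 h and 0.27 ± 0.08 at 2 h (limma, adjusted p = 0.005 and 0.02). The 2 h call was lost without hypoxia replicate 2 or without normoxia replicate 3 (adjusted p up to 0.0851), and with the RPE covariate the 0 h change was 0.09. Nbr1, a related ubiquitin receptor, was lower at 0 h by 1 of 2 probe sets (-0.23 ± 0.08, limma, adjusted p = 0.0315), a call that only the loss of normoxia replicate 3 left in place (adjusted p up to 0.0937).

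Of the lysosomal members, Lamp2, a glycoprotein of the lysosomal membrane, had the second largest change. Probe set 1416344_at was at 8.22, 8.10 and 8.13 in the hypoxic pools of 0 h and 7.11, 7.35 and 7.29 in the normoxic pools. At 2 h the pools were at 8.0, 8.31 and 8.22 and 7.78, 7.87 and 7.42. The treatments did not overlap at 0 or 2 h. The change was 0.90 ± 0.16, or 1.87-fold, at 0 h and 0.48 ± 0.16 at 2 h (limma, adjusted p = 0.000174 and 0.0401). The 2 h call was lost without hypoxia replicate 2 or 3 and without normoxia replicate 1 or 3 (adjusted p up to 0.201), and with the RPE covariate the 0 h change was 0.58 ± 0.32 (adjusted p = 0.36). None of the other 3 Lamp2 probe sets was called at 0 h, where their changes were -0.01, 0.13 and 0.25.

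Lamp1, the companion glycoprotein, was higher by 0.31 ± 0.08 at 0 h and 0.27 ± 0.08 at 2 h (limma, adjusted p = 0.00434 and 0.0221), the latter lost without hypoxia replicate 1 and without normoxia replicate 2 or 3 (adjusted p up to 0.0971). Tfeb, the transcription factor of lysosomal genes, had a change of -0.11 at 0 h and no call.

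The effects were also compared between time points. Of 66 tested member probe sets, 8 had different effects at 0 and 2 h (12.1%, against 8.21% of all), 12 at 0 and 4 h (18.2%, against 16.9%) and 12 at 0 and 16 h (18.2%, against 20.6%). By absolute change the effect was smaller at the later time for 6 of the 8, 10 of the 12 and 12 of the 12. Effects that changed sign, such as that of Atg101, are included. The share of all probe sets with a smaller later effect was not counted. At 16 h 0% of all probe sets were called, so a smaller effect there was nearly fixed beforehand. The exceptions at 2 h were Atg5 and Atg3, and those at 4 h were Atg2a and a probe set of Wipi1. The 2 h count fell to 3 without hypoxia 0 h replicate 1 or 3, hypoxia 2 h replicate 2 or normoxia 2 h replicate 2, to 4 without normoxia 0 h replicate 3 or hypoxia 2 h replicate 3, and to 5 without normoxia 0 h replicate 1 or normoxia 2 h replicate 1. The 4 h count was 7 without hypoxia 0 h replicate 1 or normoxia 4 h replicate 1. With the RPE covariate the 3 counts were 0, 3 and 1.

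**Figure D4:**
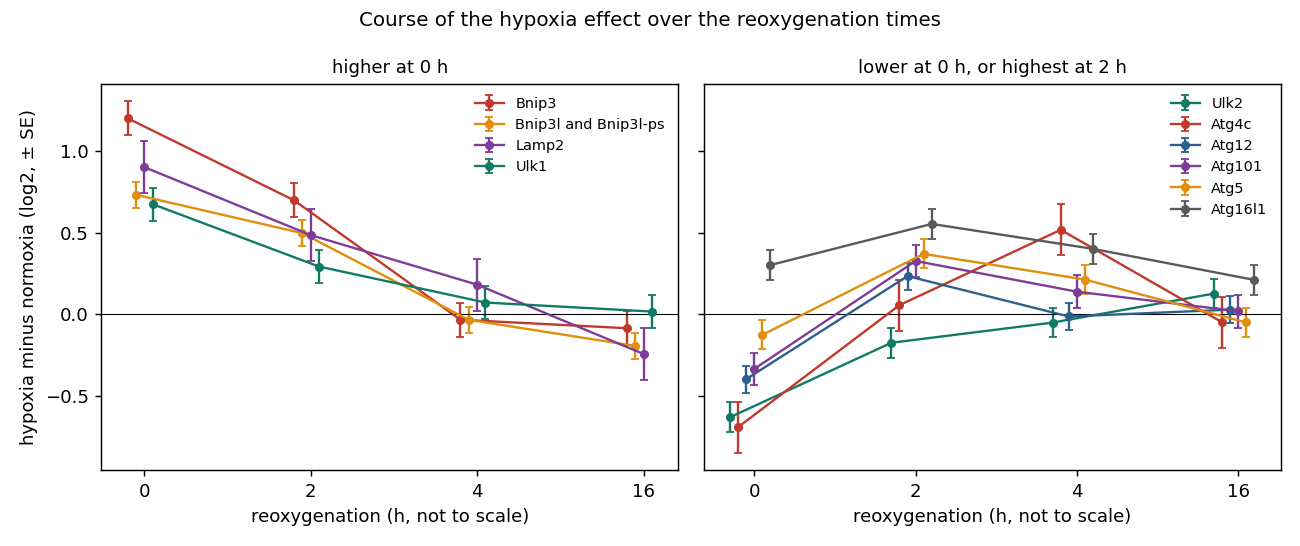
Hypoxia minus normoxia (log2, 3 against 3 pools, with the SE of the fit of all 24 arrays) at the 4 reoxygenation times, for members higher at 0 h (left) and members lower at 0 h or highest at 2 h (right), 1 probe set a gene. Bnip3, Bnip3l with its pseudogene, Lamp2 and Ulk1 approach 0 by 4 h, and Atg101 and Atg12 lie below 0 at 0 h and above it at 2 h.

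Among the normoxic groups alone, 2 of 65 tested members differed between the collection times (3.08%, against 3.54% of all, F test in limma). They were Atg16l1, whose normoxic group means spanned 0.49 on the log2 scale (adjusted p = 0.0168), and the Atg4b probe set 1424103_at, with 0.44 (adjusted p = 0.0318). The count was 0 without normoxia 4 h replicate 1 or 3, 1 without normoxia 0 h replicate 2, normoxia 4 h replicate 2 or normoxia 16 h replicate 1, and rose to 6 when normoxia 2 h replicate 3 was left out. The Atg16l1 normoxic pools were lowest at 4 h, the time of its last call.

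The rest of the pathway was followed in 6 lists of genes, 1 probe set a gene. Their counts stand beside 15.2% of all probe sets higher and 17.2% lower at 0 h, and 9.19% and 7.38% at 2 h, and nothing particular to a list is read from them. The calls of these genes were not followed in the RPE covariate or leave-one-out fits. Among the regulators upstream of Ulk1, mTORC1 and AMPK, 4 of 16 genes were higher and 3 lower at 0 h. The largest changes belonged to Sesn1 and Sesn2, stress-induced inhibitors of mTORC1, at 0.83 ± 0.11 and 0.56 ± 0.11 (limma, adjusted p = 4.54e-06 and 0.000305), and to Prkab1, a subunit of AMPK, at 0.53 ± 0.09 (adjusted p = 6.21e-05). At 2 h 1 was higher and 1 lower. At 4 h 1 was higher, and at 16 h 0 were called.

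Among 13 partners of the initiation complexes 2 were higher and 3 lower at 0 h. Bcl2, which binds and restrains Becn1, was at -0.51, Uvrag, a Becn1 partner, at 0.49, and the phosphoinositide reader Wdr45b at 0.46 (limma, adjusted p = 0.00424, 0.000145 and 8.99e-05). Of 10 other cargo receptors 3 were higher and 1 lower. Tex264, a receptor for the endoplasmic reticulum, was at 0.40, Tax1bp1, a ubiquitin-binding receptor, at 0.33, and Ccpg1, another receptor for the endoplasmic reticulum, at -0.31 (adjusted p = 0.000875, 0.00119 and 0.0439). At 2 h the counts were 2 higher and 1 lower for the partners, and 2 higher and 0 lower for the receptors.

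Of 13 measured other mitophagy genes 3 were higher and 2 lower at 0 h. Fundc2, the paralogue of Fundc1, was at -0.55, Tomm7, a subunit of the mitochondrial import pore that stabilises Pink1, at -0.28, and Phb2, a mitophagy receptor of the inner membrane, at 0.26 (limma, adjusted p = 2.19e-05, 0.0147 and 0.0097). Autophagosome fusion had 1 of 14 genes higher, the SNARE Ykt6 at 0.40, and 1 lower, the tethering subunit Vps16 at -0.29 (adjusted p = 0.000527 and 0.0182). Of 19 measured lysosomal genes linked to Tfeb 4 were higher and 2 lower, led by the transcription factor Mitf at -0.44, the protease Ctsl at 0.41 and the lipase Lipa at -0.39 (adjusted p = 0.0181, 0.0196 and 0.0455). At 2 h the fusion genes had 4 higher and 0 lower, the mitophagy genes 3 and 1, and the lysosomal genes 3 and 1. Apart from Prkab1 none of the genes of the 6 lists was called at 4 h, and none at 16 h. The medians of the 6 lists at 0 h lay between -0.04 and 0.11, beside -0.01 over all probe sets.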

How the data were processed

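RNA of 24 pools of mouse retinas was measured on Affymetrix arrays. The deposited log2 values were made by the authors with RMA, a method that subtracts background, equalises the arrays and summarises each probe set. Its version is not given in the sources used here. Array medians lay between 5.79 and 5.84, and depth on arrays is signal over background. The 64 control probe sets were left out. One linear model with 8 group means and 16 residual degrees of freedom was fitted with limma 3.58.1 in R 4.3.3, and Benjamini-Hochberg adjustment ran over all probe sets tested in a comparison. Genes came from the array annotation, where 34945 probe sets had 1 gene, 932 several and 9160 none, and 34741 matched a current entry. Promoters came from RefSeq. The members, roles and lists were chosen with earlier results of these data known. Per-pool values were given for at most 12 member genes, those with the largest called changes at any time point, and up to 3 genes a list were named by the size of their call at 0 h. Gene lists count 1 probe set a gene, the one with the highest mean. Other markers, of Mueller glia, endothelium, microglia and skeletal muscle, gave 0 of 6, 1 of 3 (Kdr, lower), 0 of 3 and 1 of 1 (Acta1, higher) calls at 0 h. The covariate and leave-one-out fits, other scalings, a replicate block, array weights and the methods' t-test were run as alternatives. The fits were tested on simulated data.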

Additional observations from a re-analysis of the deposited data

Results flagged for a closer look

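The member probe sets listed here had a hypoxia effect that differed between 0 h and a later time point by the test of the difference itself (limma, adjusted p below 0.05). Values are the effect at 0 h minus the later effect, on the log2 scale. Groups of 3 pools are too small for a search for single outlying samples.

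Between 0 and 2 h the differences were -0.74 for Atg4c, -0.66 for Atg101, -0.63 for Atg12, 0.50 for Bnip3, -0.49 for Atg5, -0.45 and -0.43 for 2 probe sets of Ulk2, and -0.32 for Atg3. For Atg4c, Atg101, Atg12, Atg5 and Atg3 the effect lay below 0 at 0 h and above 0 at 2 h. Of these later effects, those of Atg101 and Atg5 were called.

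Between 0 and 4 h they were 1.23 for Bnip3, -1.20 for Atg4c, -1.03 for Atg16l2, 0.72 for Lamp2, 0.60 for Ulk1, -0.61, -0.58 and -0.53 for 3 probe sets of Ulk2, -0.48 for Atg2a, -0.47 for Atg101, -0.38 for Atg12 and 0.35 for a probe set of Wipi1. The Atg16l2 effect was -0.71 at 0 h and 0.32 at 4 h, and it was not tested by itself at 0 h, where both group means lay below the threshold.

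Between 0 and 16 h they were 1.28 for Bnip3, 1.14 for Lamp2, -0.76 and -0.73 for Ulk2, 0.66 and 0.60 for Ulk1, 0.65 for Becn1, -0.64 for Atg4c, 0.55 for Wipi1, 0.50 for Atg10, 0.44 for Lamp1 and -0.42 for Atg12.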

How the results depend on the processing

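There were 37 called member values, the Bnip3l probe sets included, and the alternative settings together gave 735 values for them. The direction was kept in all 735, and in 118 of them the adjusted p was no longer below 0.05. With single pools left out 23 of the 37 stayed called throughout, and 4 stayed called under every alternative. Quantile normalization and median centring kept all 37. Counts of members called at 0, 2, 4 and 16 h were 21, 9, 1 and 0.

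Leaving out 1 pool at a time gave 17 to 20, 6 to 8, 0 to 1 and 0. The counts of effects that differed from 0 h were 8, 12 and 12, and with 1 pool left out 3 to 8 at 2 h, 7 to 12 at 4 h and 9 to 13 at 16 h. The count of 2 members that differed among the normoxic groups became 0 to 6.

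The methods' t-test at an unadjusted p under 0.001 called 5, 0, 0 and 1 members, and with adjusted p it called 0 at 2 h and 0 at 4 h. The 6 arrays of a time point alone gave 3 at 2 h and 0 at 4 h. Trended and robust spread gave 15 at 2 h, 2 at 4 h and 5 among the normoxic groups, and array quality weights gave 14, 5 and 5. An adjusted p under 0.1 gave 15 at 2 h, 2 at 4 h, 19 differences from 16 h and 8 among the normoxic groups. The RPE covariate gave 2 at 0 h, 5 at 2 h, 0 at 4 h, differences of 0, 3 and 1, and 1 among the normoxic groups; the lens covariate gave 1 there. Averaged per gene, 11 genes were called at 0 h, 0 at 4 h, and 3, 7 and 6 differed from the later times. With no signal filter 3 differed from 2 h and 1 among the normoxic groups. The normoxic count was 0 in the 12 normoxic arrays alone and 0 without normoxia 0 h replicate 2 and normoxia 16 h replicate 3. The cause of these changes was not tested. These alternatives counted members only, so no share of all probe sets stands beside their counts.

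Same-numbered hypoxic and normoxic pools had correlations of their deviations between -0.269 and 0.219, above 0.1 in 5 of 12 pairs. With 3 pools a group, these values cannot decide whether the replicate numbers pair the pools. The main fit left the pools unpaired. A replicate block over all time points called 21, 9, 1 and 0. A replicate block within each time point called 20, 7, 0 and 0 and left 4 differences from 2 h. Signal near the threshold limits the values of Becn1, Gabarapl2, Wipi1 and Atg4c, and 3 pools a group limit the precision of all of them. The limma p-values set a change against the spread between pools of 3 mice within groups, shared over the 8 groups.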
